A study of Mus musculus with 10 samples.

Results

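The transcripts of 40 genes of glycolysis, the pentose phosphate pathway and the TCA cycle were followed in leukemias and pro-B cells of mice. The set holds 20 genes from glucose uptake to lactate export, 5 of the pyruvate gate, 6 of the pentose phosphate pathway and 9 of the TCA cycle and its isozymes. It was drawn by gene name from 27218 genes on the arrays, each gene being read from its brightest probe over the 10 arrays. Each of 5 groups had 2 one-colour Agilent arrays. The leukemias, B cell acute lymphoblastic leukemias named dHet-B-ALL, were taken from the lymph node of 3 mice of Ebf1+/- Pax5+/- genotype, 686, 713 and 760. The dHet pro-B cells were Ebf1+/- Pax5+/- Rag2-/- cells, c-Kit positive, from fetal liver, grown on a layer of OP9 feeder cells in IL-7, Flt3L and SCF. As wild type (wt) pro-B cells the study sorted Fraction BC from bone marrow of control mice, Ebf1+/+ Pax5+/+. Ebf1 and Pax5 encode transcription factors of B cell commitment, and the leukemias and dHet pro-B cells share their genotype at both genes. The labels give no ages, and do not say whether the 2 arrays of a group come from separate animals or cultures. Tissue, culture and Rag2 genotype differ together with the groups and cannot be told apart from leukemia.

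Glycolysis splits glucose into pyruvate, which becomes lactate in the cytosol or enters the mitochondrion. Pyruvate dehydrogenase makes acetyl-CoA from it there for the TCA cycle, and pyruvate dehydrogenase kinases switch that enzyme off. The pentose phosphate pathway branches off after the first step of glycolysis and supplies NADPH and ribose for nucleotides. Many of the steps have isozymes encoded by separate genes, and proliferating cells and tumours often use others than resting cells do.

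A level below is the log2 processed signal minus that array's 75th percentile, so a level of 0 is that percentile and different probes cannot be set against each other. Changes are differences of mean level on the log2 scale with the standard error (SE) of limma, and a gene passed when its p-value, adjusted over all 14438 genes tested, was under 0.05. The 2 arrays of a leukemia were averaged, so that comparisons of the leukemias with pro-B cells set 3 mice against 2 arrays, and n is 3 and 2 throughout. Of the 40 genes 38 were tested. The neuronal enolase Eno2 and the pyruvate dehydrogenase kinase Pdk4 were well above background on none of the 10 arrays.

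The share of probes well above background was between 35.7% and 52.2% on the leukemia arrays and between 48.6% and 52.4% on the pro-B arrays, the lowest being replicate 1 of leukemia 686. Replicate 1 of every leukemia lay on slide 1 and replicate 2 on slide 2, and all pro-B arrays lay on slide 3, and therefore a slide effect and a difference of leukemias from pro-B cells cannot be told apart. The slide 2 leukemia arrays were scanned on the same day as the pro-B arrays. The 2 dHet arrays did not hold the same RNA, since Ddx3y, of the Y chromosome, stood at 1.56 on 1 of them and was not well above background on the other (-6.14). On slide 1, the arrays of leukemias 686 and 713 showed Xist, the RNA of the silenced X chromosome, at -1.26 and -2.51 beside Ddx3y, and that of leukemia 760 showed Ddx3y at -3.13 beside Xist. None of these 3 signals was well above background on slide 2, and the part of this in the results was not tested. Cd79a, a defining gene of B lineage cells, was well above background on all 10 arrays. The summed linear level of B lineage markers was 1060 to 1480 on leukemia, 2040 to 2380 on dHet and 1380 to 1410 on wt arrays, that of T cell markers 12.9 to 67.2, 11.2 to 14.8 and 9.63 to 10.8, and that of red cell markers 1.15 to 87.9, 0.238 to 0.354 and 1.47 to 1.94. Of 11 B lineage markers tested, 2 (18.2%) were higher and 7 (63.6%) lower in the leukemias against wt (median -0.98), where 31.3% and 27.5% of all genes were. Against dHet 8 (72.7%) were lower (median -0.87), where 24.4% of all genes were. The part of these markers in the results was not tested. In bulk samples, fewer cells of a type and less RNA per cell cannot be told apart.

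Against wt pro-B cells, most genes of the 3 pathways were higher in the leukemias. Of 38 genes tested, 25 were higher, where 31.3% of all genes were, and 5 were lower, where 27.5% of all genes were. Among them 21 were higher and 4 lower by at least 2-fold, 1 of the 4 being Hk3, whose change came to -0.43 with the undetected arrays at the dimmest level well above background. The share of all genes that passed at 2-fold was not counted, so no result is read from the 2-fold numbers. The median change of the 38 was 1.09, against 0.06 over all genes. In glycolysis 12 of 19 tested were higher and 2 lower (median 1.42), and at the pyruvate gate 3 of 4 were higher and 1 lower (median 1.02). In the TCA cycle 7 of 9 were higher and the others, Idh1 and Ogdh, did not pass (median 1.1). The pentose phosphate pathway was divided, with 3 of 6 higher and 2 lower (median 0.52). Every one of these calls had the same direction in all 3 mice. The lower genes numbered 3 without wt replicate 1 and 2 without wt replicate 2.

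Against dHet pro-B cells, which share the Ebf1 and Pax5 genotype, 22 of the 38 were higher, where 21.7% of all genes were, and 2 were lower, where 24.4% were. The 2 lower genes were Pdk2 and Idh1. The median change was 0.67, against -0.06 over all genes, and 11 of the higher genes reached 2-fold, Hk3 among them, which no dHet array measured. Here too the share of all genes at 2-fold was not counted. By pathway, 10 of 19 glycolysis genes (median 0.79), 2 of 4 gate genes (0.38), 4 of 6 pentose phosphate genes (0.65) and 6 of 9 TCA genes (0.73) were higher. In 11 of these 22 genes the rise was thus under 2-fold, and with either dHet array left out the number higher was 10 and neither Pdk2 nor Idh1 passed.

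**Figure D1:**
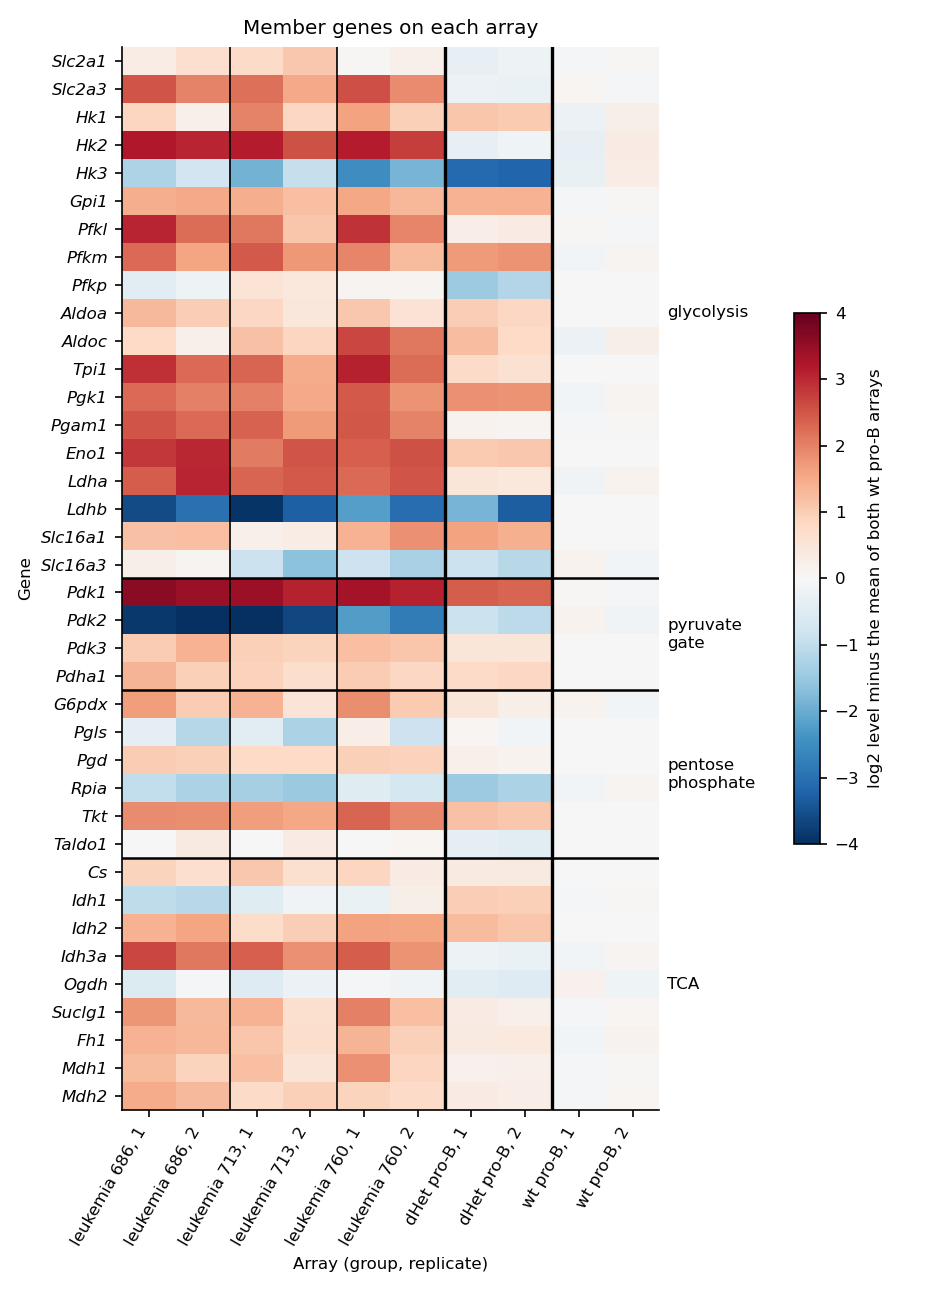
Level of each of the 38 tested genes (rows, by pathway) on each of the 10 arrays (columns), shown as the difference in log2 level from the mean of the 2 wt pro-B arrays. Most rows of glycolysis and the TCA cycle are above the wt mean on all 6 leukemia arrays, while Ldhb and Pdk2 are below it there.

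The pyruvate dehydrogenase kinase gene Pdk1 and the hexokinase gene Hk2 had the highest changes against wt, and Pdk2 and the lactate dehydrogenase gene Ldhb the lowest. The 250 bases before the annotated start of each are shown, with those of Ldha, the partner of Ldhb. They are RefSeq sequences on build GRCm38.p6, 5′ to 3′ on the strand of the gene, Hk2 at chr6:82774455-82774704 (minus), Ldha at chr7:46845554-46845803 (plus), Ldhb at chr6:142507958-142508207 (minus), Pdk1 at chr2:71872974-71873223 (plus) and Pdk2 at chr11:95041372-95041621 (minus). Capitals mark CACGTG, the E-box that MYC binds with MAX, and the cores ACGTG and GCGTG of the sites that hypoxia-inducible factors bind, on either strand.
Hk2: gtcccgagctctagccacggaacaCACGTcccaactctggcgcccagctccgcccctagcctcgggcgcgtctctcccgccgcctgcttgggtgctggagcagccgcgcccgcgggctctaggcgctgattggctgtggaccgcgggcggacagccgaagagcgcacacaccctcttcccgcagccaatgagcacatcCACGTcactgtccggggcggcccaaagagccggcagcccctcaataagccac
Ldha: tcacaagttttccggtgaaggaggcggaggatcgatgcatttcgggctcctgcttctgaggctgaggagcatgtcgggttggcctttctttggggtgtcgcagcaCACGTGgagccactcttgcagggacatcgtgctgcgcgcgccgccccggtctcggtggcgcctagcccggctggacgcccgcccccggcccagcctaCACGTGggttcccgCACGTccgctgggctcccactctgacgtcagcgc
Ldhb: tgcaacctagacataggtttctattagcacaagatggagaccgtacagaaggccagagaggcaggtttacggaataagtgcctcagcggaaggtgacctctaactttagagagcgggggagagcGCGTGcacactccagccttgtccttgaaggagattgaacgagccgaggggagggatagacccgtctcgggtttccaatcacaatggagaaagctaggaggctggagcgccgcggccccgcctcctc
Pdk1: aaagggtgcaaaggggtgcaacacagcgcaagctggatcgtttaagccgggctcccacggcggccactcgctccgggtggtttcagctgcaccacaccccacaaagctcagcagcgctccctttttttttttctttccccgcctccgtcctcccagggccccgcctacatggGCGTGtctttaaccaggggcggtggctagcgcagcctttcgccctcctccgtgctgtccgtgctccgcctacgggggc
Pdk2: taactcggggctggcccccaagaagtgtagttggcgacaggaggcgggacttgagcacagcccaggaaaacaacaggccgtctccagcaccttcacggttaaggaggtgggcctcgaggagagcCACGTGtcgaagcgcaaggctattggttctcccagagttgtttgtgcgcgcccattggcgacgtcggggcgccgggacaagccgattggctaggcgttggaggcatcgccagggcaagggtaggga

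Ldha held 2 CACGTG, and each of these also holds ACGTG on both strands. Pdk2, which was lower in the leukemias, held 1 CACGTG as well. Hk2 held ACGTG at 2 places and no CACGTG, while Ldhb and Pdk1, which moved in opposite directions, each held 1 GCGTG. Of the 40 genes 38 matched the promoter table by symbol. In the 300 bases from 250 before to 50 after the first-listed start, CACGTG was found in 4 of 38 against 7.24% of 27025 genes, ACGTG in 15 (39.5%) against 19.7%, and GCGTG in 25 (65.8%) against 32.5%. The 4 with CACGTG were Pfkm, Ldha, Slc16a1 and Pdk2. These are matches of letters in 1 window and no measure of binding.

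Among transcripts for glucose uptake and its first phosphorylation, Slc2a3 and Hk2 were higher in the leukemias than in both kinds of pro-B cell. Slc2a3 encodes GLUT3, a high-affinity glucose transporter. Its level was 1.63, 2.21 and 2.69 (lowest, median and highest of 6 leukemia arrays), against -0.14 and -0.15 in dHet and 0.19 and 0.02 in wt pro-B cells. All leukemia arrays stood above all pro-B arrays, which was so for 18 of the 38 genes and for 17.8% of all genes. The change was 2.12 ± 0.16 against wt (4.35-fold, adjusted p = 0.000411) and 2.37 ± 0.16 against dHet (5.18-fold, adjusted p = 0.000666). Slc2a1, which encodes the widespread transporter GLUT1, lay between 0.83 and 1.85 on leukemia arrays, against 0.43 and 0.56 in dHet and 0.72 and 0.82 in wt, so the lowest leukemia array only just cleared the wt arrays. It passed against dHet (0.79 ± 0.24, adjusted p = 0.0411) and not against wt (0.52 ± 0.24, adjusted p = 0.115).

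Hk2, the hexokinase tied to mitochondria and common in tumours, was read at chr6:82675056-82675115 on mm9, the build of all probe positions here. Its level was 0.21, 0.75 and 0.85 on the leukemia arrays, against -2.67 and -2.51 in dHet and -2.68 and -2 in wt pro-B cells. The leukemia arrays lay within a narrow band, far above both kinds of pro-B cell, which overlapped each other. The change was 2.97 ± 0.23 against wt (7.83-fold, adjusted p = 0.000409) and 3.22 ± 0.23 against dHet (9.32-fold, adjusted p = 0.000708). Hk1, the housekeeping hexokinase, stood at 2.12, 2.82 and 3.89 on leukemia arrays, against 3.02 and 2.97 in dHet and 1.69 and 2.15 in wt pro-B cells. It was higher than in wt at this probe (1.07 ± 0.30, adjusted p = 0.0253) but overlapped the dHet arrays. None of its 4 other probes passed against wt (-0.61 to 0.38), and 3 of them were lower than in dHet (-1.6, -1.18 and -1.47), so no direction was settled for Hk1. Hk3, a hexokinase best known from myeloid cells, reached a signal well above background on 2 of the 6 leukemia arrays and on no dHet array, against levels of -3.49 and -2.91 in wt. It was lower in the leukemias than in wt (-1.54 ± 0.37, adjusted p = 0.0153), or -0.43 with the undetected arrays at the dimmest level well above background. Its call as higher than dHet (adjusted p = 0.0175) has no fold, since no dHet array measured it. The summed level of myeloid markers was 12.6 to 131 on leukemia, 26.1 and 27.6 on dHet and 75.7 and 150 on wt arrays. Its part in the result was not tested.

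In the middle of glycolysis, Pfkl was higher in the leukemias than in both kinds of pro-B cell, whereas Gpi1, Pfkm and Aldoa were higher than wt and overlapped dHet. Gpi1, which turns glucose 6-phosphate into fructose 6-phosphate, stood between 7.17 and 7.51 in leukemias, against 7.37 and 7.36 in dHet and 5.93 and 6 in wt pro-B cells. The leukemias and the dHet cells overlapped and both lay above wt, by 1.42 ± 0.12 (adjusted p = 0.000467) and 1.40 ± 0.17 (adjusted p = 0.00107). Phosphofructokinase, the committing step, has 3 isoforms. Pfkl, the liver-type subunit, was 0.39, 1.44 and 2.31 in leukemias, against -0.47 and -0.41 in dHet and -0.69 and -0.77 in wt, without overlap. It was 4.66-fold higher than wt (2.22 ± 0.31, adjusted p = 0.0021) and 3.81-fold higher than dHet (1.93 ± 0.31, adjusted p = 0.00524).

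Pfkm, the muscle-type subunit, had another pattern. It was between 1.44 and 2.61 in leukemias, against 1.88 and 1.96 in dHet and 0.05 and 0.29 in wt, so it rose over wt in the leukemias (1.88 ± 0.18, adjusted p = 0.000685) and in dHet cells (1.75 ± 0.35, adjusted p = 0.00954). Pfkp, the platelet-type subunit, was between 0.01 and 0.96 in leukemias, against -1.03 and -0.74 in dHet and 0.44 and 0.41 in wt. It did not pass against wt (0.09 ± 0.25, adjusted p = 0.771) and was higher than in dHet (1.40 ± 0.25, adjusted p = 0.00725). A second Pfkp probe was lower than in wt (-1.40, adjusted p = 0.00151) and higher than in dHet (0.64, adjusted p = 0.0304). The 3 isoforms therefore had 3 different orders of the groups. Aldoa, the main aldolase, resembled Gpi1, with 0.87 ± 0.18 for the leukemias against wt (adjusted p = 0.00863) and 0.91 ± 0.23 for dHet against wt (adjusted p = 0.0236). Aldoc, the brain-type aldolase, spread from -2.12 to 0.35 in leukemias and did not pass against wt (1.30 ± 0.56, adjusted p = 0.094).

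In the steps below aldolase, Tpi1, Pgam1 and Eno1 were higher than in both kinds of pro-B cell, while Pgk1, which makes the first ATP of the pathway, passed against wt and not against dHet. Pgam1, the phosphoglycerate mutase, stood at 5.46, 6.08 and 6.29 in leukemias, against 3.90 and 3.86 in dHet and 3.71 and 3.82 in wt. It was 4.66-fold and 4.31-fold higher (2.22 ± 0.15, adjusted p = 0.000321 against wt, and 2.11 ± 0.15, adjusted p = 0.000716 against dHet). Eno1, the common enolase, showed steps between all 3 kinds of sample, at 2.89, 3.35 and 3.82 in leukemias, 1.87 and 1.91 in dHet and 0.81 and 0.83 in wt. It was 5.88-fold above wt (2.56 ± 0.20, adjusted p = 0.000431) and 2.81-fold above dHet (1.49 ± 0.20, adjusted p = 0.00334). Eno1 has a near-identical copy in the mouse genome, whose transcripts the probe could share. Tpi1, the triose phosphate isomerase, was 5.23-fold above wt (2.39 ± 0.25, adjusted p = 0.000881) at its brightest probe, while its second probe passed in neither comparison (-0.13 and -0.41). Pgk1 was between 5.35 and 6.27 in leukemias, against 5.66 and 5.63 in dHet and 3.72 and 3.93 in wt. It was 4.03-fold above wt (2.01 ± 0.17, adjusted p = 0.000481) and did not pass against dHet (0.19 ± 0.17, adjusted p = 0.387).

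At the lactate end the subunits parted. Ldha, the subunit that favours lactate formation, was read at chr7:54110889-54110948. It stood at 6.85, 7.01 and 7.63 in leukemias, against 5.07 and 4.99 in dHet and 4.45 and 4.71 in wt, without overlap. It was 5.68-fold above wt (2.51 ± 0.17, adjusted p = 0.000321) and 4.15-fold above dHet (2.05 ± 0.17, adjusted p = 0.00093), and its second probe gave the same calls (2.76 and 2.44). Ldhb, the subunit that favours the return of lactate to pyruvate, was read at chr6:142438838-142438897 and did the reverse. It was detected (well above background) on 4 of 6 leukemia arrays. Over all 6, detected or not, its level was -3.65, -2.88 and -1.92 (lowest, median and highest), against -1.59 and -3.02 in dHet and 0.27 and 0.27 in wt. It was 8.96-fold below wt in the leukemias (-3.16 ± 0.48, adjusted p = 0.00288) and 5.96-fold below wt in dHet pro-B cells (-2.58 ± 0.52, adjusted p = 0.0095), and the leukemias did not pass against dHet (-0.59 ± 0.48, adjusted p = 0.354).

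Of the lactate transporters, Slc16a1, which encodes MCT1, was between 3.67 and 5.29 in leukemias, against 5.07 and 4.88 in dHet and 3.47 and 3.44 in wt. It was 2.87-fold above wt in dHet cells (1.52 ± 0.19, adjusted p = 0.00134), while the leukemias, which spread widely, did not pass against wt (1.01 ± 0.39, adjusted p = 0.0687). Slc16a3, which encodes the lactate exporter MCT4, was near background on all arrays, with the leukemias between -3.80 and -1.91 and wt at -2.03 and -2.28. It passed in neither leukemia comparison.

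Against wt, the gate between glycolysis and the TCA cycle held both the highest change of the 38 genes, that of Pdk1, and the lowest, that of Pdk2. Pdk1, a kinase that inactivates pyruvate dehydrogenase, is known as a target of hypoxia-inducible factor. It was read at chr2:71739688-71739747 and stood at 2.15, 2.45 and 2.68 in leukemias, against 1.49 and 1.40 in dHet and -0.90 and -0.98 in wt. Most of its step lay between wt and dHet cells, which differed by 2.38 ± 0.19 (5.21-fold, adjusted p = 0.000189). The leukemias were 10.1-fold above wt (3.33 ± 0.14, adjusted p = 0.000157) and 1.93-fold above dHet (0.95 ± 0.14, adjusted p = 0.00438). A second Pdk1 probe was higher than in wt (2.31) and did not pass against dHet (-0.01, adjusted p = 0.957).

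Pdk2, another kinase of the same family, moved the opposite way. It was read at chr11:94887980-94888039 and was detected on 3 of 6 leukemia arrays. Over all 6, detected or not, its level was -4.99, -4.24 and -2.74 (lowest, median and highest), against -1.34 and -1.54 in dHet and -0.34 and -0.65 in wt. It was the only one of the 38 genes to lie below all pro-B arrays on every leukemia array, where 15.1% of all genes did. The fall was 11.8-fold against wt (-3.56 ± 0.51, adjusted p = 0.00226) and 6.16-fold against dHet (-2.62 ± 0.51, adjusted p = 0.00952). With the undetected arrays at the dimmest level well above background the changes were -2.92 and -1.98. Pdk3, another kinase of the family, was between 1.11 and 1.62 in leukemias, against 0.70 and 0.72 in dHet and 0.26 and 0.20 in wt, and was higher in both comparisons (1.09 ± 0.13, adjusted p = 0.00142, and 0.61 ± 0.13, adjusted p = 0.0148). Pdha1, the catalytic subunit that these kinases phosphorylate, was raised over wt alike in leukemias (0.96 ± 0.14, adjusted p = 0.00269) and dHet cells (0.80 ± 0.19, adjusted p = 0.0177).

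**Figure D2:**
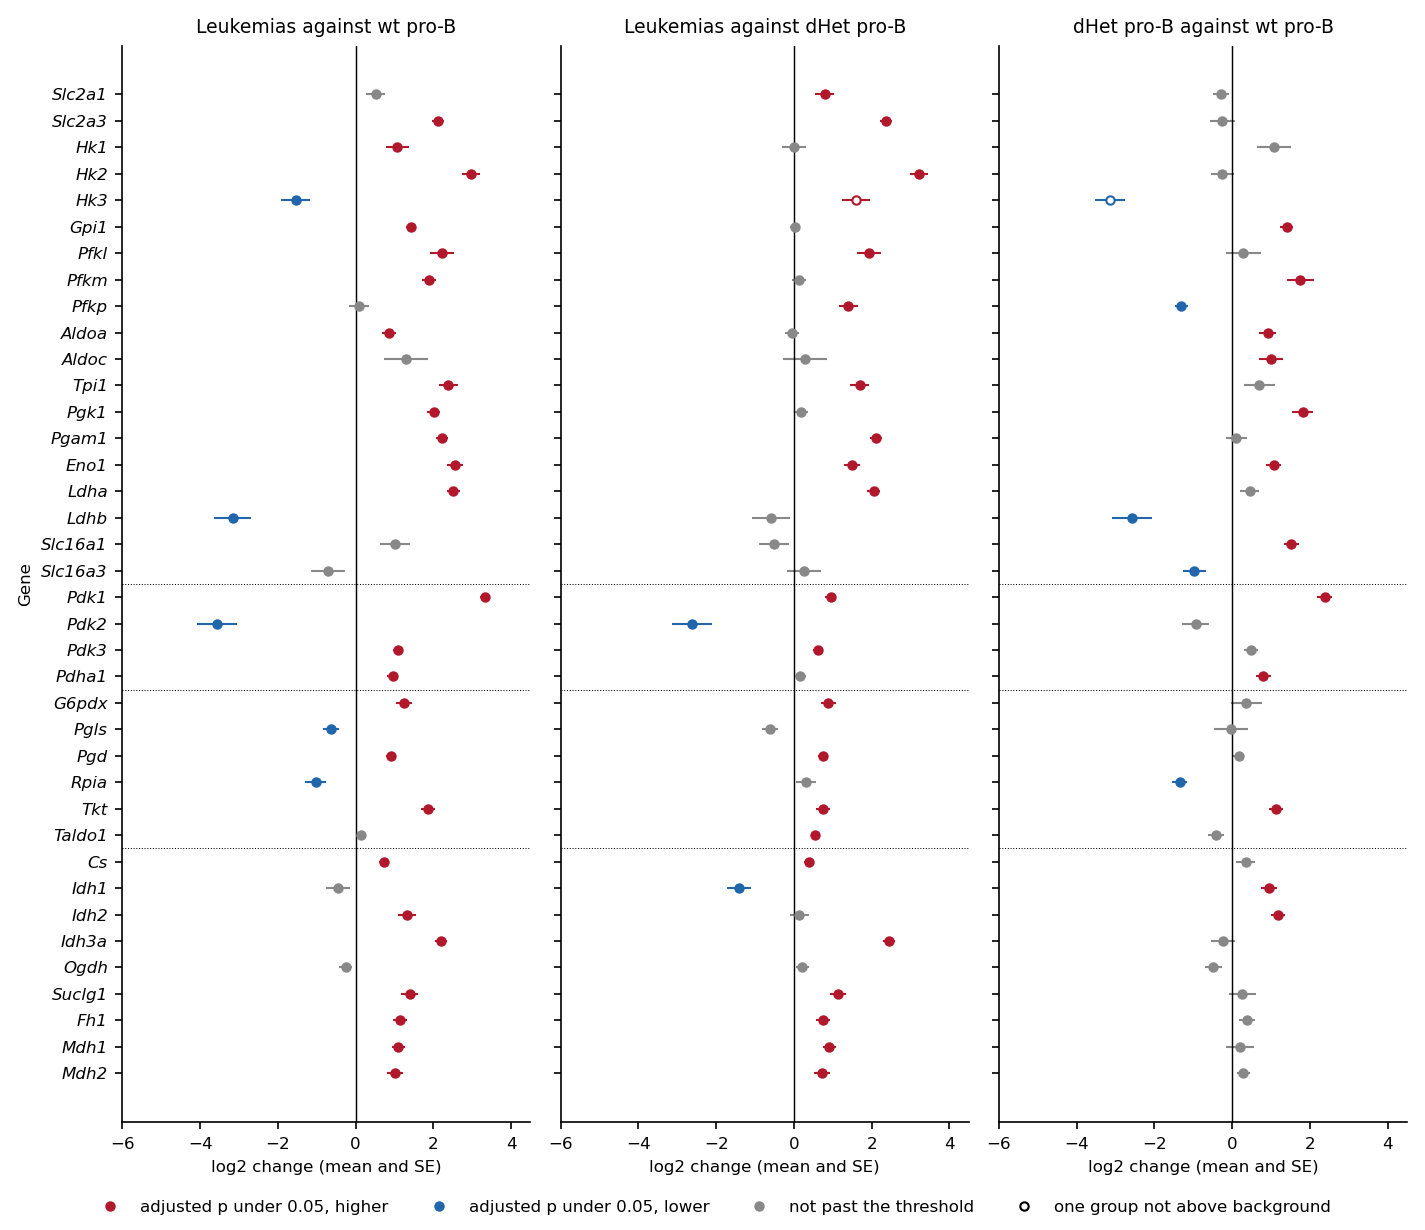
Change in log2 level of each gene (points) with its SE (bars) for leukemias against wt pro-B, leukemias against dHet pro-B and dHet pro-B against wt pro-B cells. Red is higher and blue lower past the adjusted p of 0.05, grey did not pass, and open points mark a group with no array well above background. Pdk1 and Hk2 have the highest changes against wt and Pdk2 and Ldhb the lowest, and Hk2 has the highest against dHet.

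The pentose phosphate pathway did not move as a block. In its oxidative arm, which makes NADPH, G6pdx, the entry enzyme glucose 6-phosphate dehydrogenase, was 2.78, 3.49 and 4.12 in leukemias, against 2.76 and 2.50 in dHet and 2.40 and 2.15 in wt. It was higher than wt (1.24 ± 0.20, adjusted p = 0.00349) and than dHet (0.89 ± 0.20, adjusted p = 0.0157), but on the slide 2 arrays alone the change against dHet was 0.50 and did not pass (adjusted p = 0.114). Pgd, the second NADPH-producing dehydrogenase, had the least spread of the arm, at 3.16 to 3.39 in leukemias, against 2.57 and 2.50 in dHet and 2.38 and 2.36 in wt. It was higher by 0.91 ± 0.12 (adjusted p = 0.00176) and 0.75 ± 0.12 (adjusted p = 0.00542). Pgls, the lactonase between them, was instead lower than wt (-0.63 ± 0.20, adjusted p = 0.0385). That fall was -1.08 on slide 2 and -0.19 on slide 1, where it did not pass (adjusted p = 0.534).

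In the non-oxidative arm, which links ribose to glycolysis, Tkt (transketolase) was 7.06, 7.39 and 7.86 in leukemias, against 6.69 and 6.61 in dHet and 5.5 and 5.55 in wt. It was 3.66-fold above wt (1.87 ± 0.18, adjusted p = 0.000675) and 0.75 ± 0.18 above dHet on the log2 scale (adjusted p = 0.0189), although its second probe passed in neither (0.33 and 0.22). Rpia, the ribose 5-phosphate isomerase, was between 3.01 and 3.99 in leukemias, against 3.03 and 3.23 in dHet and 4.38 and 4.58 in wt. It was lower than wt in the leukemias (-1.03 ± 0.26, adjusted p = 0.0162) and in dHet cells (-1.35 ± 0.19, adjusted p = 0.00207). Taldo1 (transaldolase) passed only against dHet (0.55 ± 0.12, adjusted p = 0.0126). Its change against wt, 0.13, turned negative under other normalizations and passed as lower under some of them.

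In the TCA cycle the isocitrate dehydrogenases differed most. Idh3a, the catalytic subunit of the NAD-dependent enzyme of the cycle, was 3.61, 4.08 and 4.5 in leukemias, against 1.62 and 1.54 in dHet and 1.71 and 1.93 in wt. Every leukemia array lay far above both pro-B groups, by 2.20 ± 0.15 against wt (4.61-fold, adjusted p = 0.000328) and 2.44 ± 0.15 against dHet (5.44-fold, adjusted p = 0.000553). Idh2, the mitochondrial NADP-dependent enzyme, was between 2.43 and 3.30 in leukemias, against 2.95 and 2.80 in dHet and 1.71 and 1.68 in wt. It was raised over wt in leukemias (1.32 ± 0.24, adjusted p = 0.00545) and in dHet cells (1.18 ± 0.17, adjusted p = 0.0023). Idh1, its cytosolic counterpart, was detected on 4 of 6 leukemia arrays. Over all 6, detected or not, its level was -4.05, -3.32 and -2.72 (lowest, median and highest), against -1.97 and -2.00 in dHet and -2.99 and -2.90 in wt. It was highest in dHet pro-B cells, and was lower than there in the leukemias (-1.42 ± 0.31, adjusted p = 0.0136), or by -1.12 with the undetected arrays at the dimmest level well above background. This call was lost with array median scaling, quantile normalization, normexp and quantile normalization, and the deposited values. The smallest change over all alternatives was -0.33.

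Suclg1, a subunit of succinyl-CoA synthetase, was 1.39 ± 0.21 above wt (adjusted p = 0.00261) and 1.13 ± 0.21 above dHet (adjusted p = 0.00803). Fh1 (fumarase), Mdh1 and Mdh2 (cytosolic and mitochondrial malate dehydrogenase) and Cs (citrate synthase) were higher than wt by between 0.74 and 1.14, and higher than dHet by between 0.39 and 0.91. A second Mdh1 probe was higher than in wt (0.58, adjusted p = 0.032) and did not pass against dHet (0.25, adjusted p = 0.271). On slide 2 alone, the changes of Fh1 (0.62, adjusted p = 0.0555) and Cs (0.19, adjusted p = 0.322) against dHet did not pass. The Cs call against dHet was kept in only 6 of 27 alternatives, and its lowest leukemia array (6.03) lay below both dHet arrays (6.06 and 6.04). Ogdh, a subunit of the oxoglutarate dehydrogenase complex, passed in no comparison with wt or dHet, with leukemias between 0.16 and 0.66, dHet at 0.28 and 0.19 and wt at 0.88 and 0.54.

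**Figure D3:**
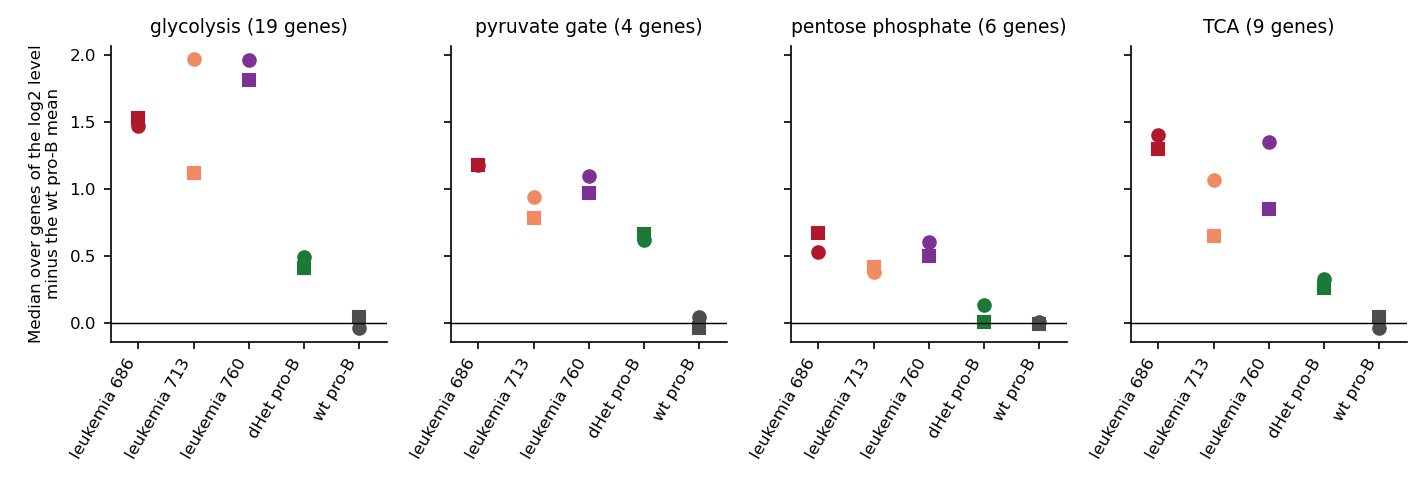
Median difference in log2 level from the wt pro-B mean over the tested genes of each pathway, 1 point per array. Glycolysis stands between 1.12 and 1.97 on the leukemia arrays and at 0.49 and 0.41 on the dHet arrays, and the pentose phosphate genes stay between 0.38 and 0.67 on the leukemia arrays.

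The pathway medians on single arrays are descriptions of these libraries. For glycolysis genes the median difference from the wt mean was 1.12 to 1.97 on the 6 leukemia arrays and 0.49 and 0.41 on the dHet arrays. For the TCA genes it was 0.65 to 1.40 on leukemia and 0.33 and 0.26 on dHet arrays, and for the gate genes 0.78 to 1.18 and 0.62 and 0.66. For the pentose phosphate genes it was 0.38 to 0.67 and 0.13 and 0.01, the smallest of the 4 groups of genes on every leukemia and dHet array.

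For many of these genes the arrays of cultured dHet pro-B cells lay between those of wt pro-B cells and leukemias, often close to wt. In 14 of the 38, both dHet arrays lay above both wt arrays and below all leukemia arrays, where 9.66% of all genes did. These were Pfkl, Tpi1, Pgam1, Eno1, Ldha, Pdk1, Pdk3, G6pdx, Pgd, Tkt, Suclg1, Fh1, Mdh1 and Mdh2. Of these, only Pdk1, Eno1 and Tkt passed for dHet against wt. The order did not hold at second probes of Pdk1, Tpi1, Tkt and Mdh1. At that of Pdk1 the dHet arrays (1.74 and 1.75) lay within the range of the leukemia arrays (1.44 to 2.08). The differences of Pgam1, Pgd, Mdh1 and Mdh2 between dHet and wt took the other sign under some other normalizations. Pdk2 alone had the opposite order, where 6.29% of all genes did, and its difference between dHet and wt did not pass. In 6 genes (Slc2a1, Slc2a3, Hk3, Pfkp, Taldo1 and Idh3a) the dHet arrays were the lowest of all, and in Idh1 they were the highest. The share of all genes with these orders was not counted, so no result is read from them. For dHet against wt, only Hk3, Pfkp and Idh1 of these passed, and no dHet array measured Hk3.

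Tested directly, 12 of the 38 genes were higher in dHet than in wt pro-B cells, where 16.7% of all genes were, and 5 were lower, where 14.8% were. The higher genes were Pdk1, Pgk1, Pfkm, Slc16a1, Gpi1, Idh2, Tkt, Eno1, Aldoc, Idh1, Aldoa and Pdha1, and the lower ones Hk3, Ldhb, Rpia, Pfkp and Slc16a3. Hk2 was among the genes that did not pass (-0.25 ± 0.30, adjusted p = 0.58), as were Slc2a3 (-0.25, adjusted p = 0.61) and Ldha (0.45 ± 0.24, adjusted p = 0.199). Hk3 was at least 1.81-fold lower (adjusted p = 0.00125), with both dHet arrays not well above background. Leaving out 1 of the 4 arrays gave 7 higher genes without either dHet array or without wt replicate 1, 8 without wt replicate 2, and 3 lower genes without either wt array, where Ldhb and Slc16a3 no longer passed.

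The balance of isozymes was followed as the difference of 2 log2 levels on the same array. Since the 2 probes differ in brightness for the same amount of RNA, only changes of this log2 ratio between groups have meaning. Of 14 pairs, 12 could be fitted, and Eno2/Eno1 and Pdk4/Pdk2 could not. Against wt, 7 ratios were higher and 3 lower, the 3 being Ldhb/Ldha, Hk3/Hk1 and Slc16a3/Slc16a1. How many pairs of other genes would pass was not counted, so no result is read from these numbers. Hk3/Hk1 (-2.61) came to -1.5 with undetected arrays at the dimmest level well above background, and Hk1 itself had no settled direction. Pdk1/Pdk2 was 119-fold higher (6.90 ± 0.56, adjusted p = 0.000458), with Pdk1 higher and Pdk2 lower. Pdk2 was detected on only 3 of the 6 leukemia arrays, and with the others at the dimmest level well above background the change was 6.25. It was 4.15 with normexp and quantile normalization and 4.12 with the deposited values, so its size depends on the processing. On single arrays that log2 ratio was 5.14 to 7.48 in leukemias, 2.82 and 2.94 in dHet and -0.56 and -0.32 in wt. Ldhb/Ldha was 50.9-fold lower (-5.67 ± 0.50, adjusted p = 0.000531), at -10.56 to -8.78 in leukemias, -6.66 and -8.01 in dHet and -4.17 and -4.44 in wt. That change was -5.44 with the 2 undetected leukemia arrays at the dimmest level, -3.69 with normexp and quantile normalization and -3.65 with the deposited values. Both ratios put the dHet pro-B cells between the other groups without overlap.

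**Figure D4:**
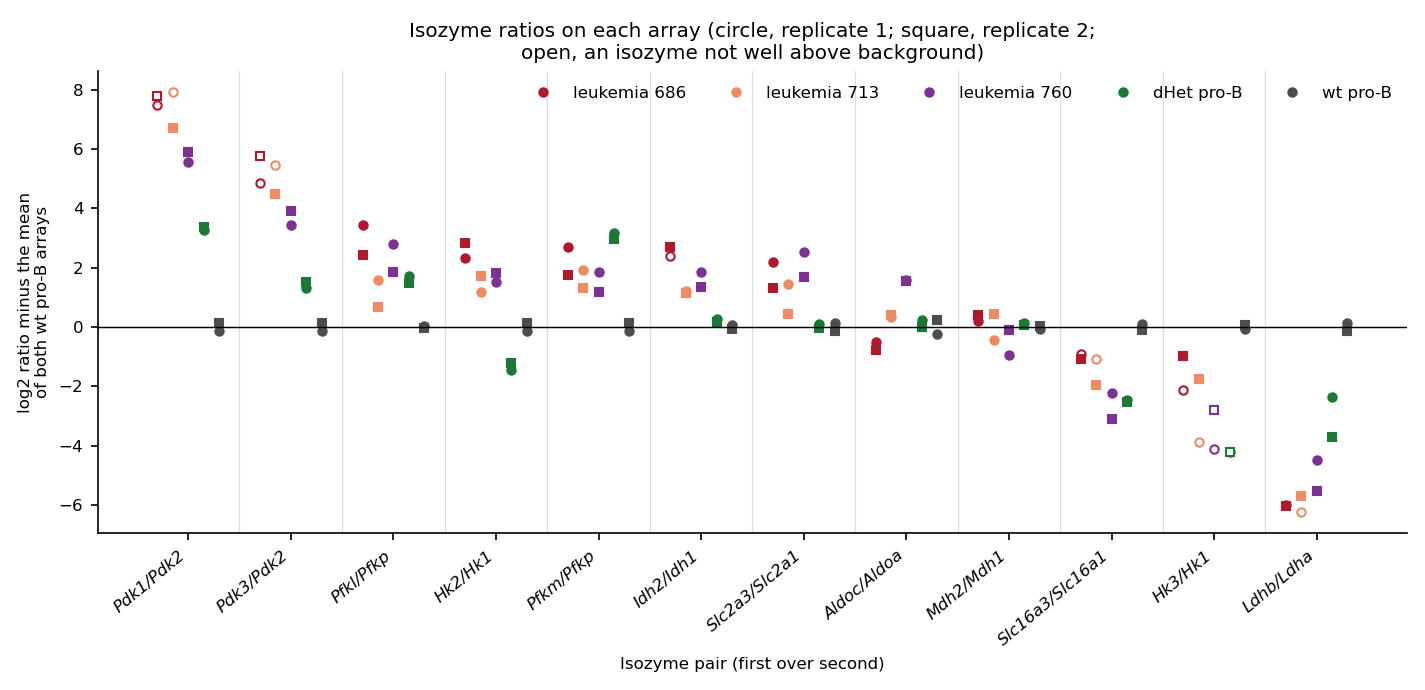
Log2 ratio of 2 isozymes on each array, as the difference from the mean of the wt pro-B arrays, for 12 pairs. Open points mark arrays on which an isozyme was not well above background. Pdk1/Pdk2 lies furthest above and Ldhb/Ldha furthest below the wt mean on the leukemia arrays, and Hk2/Hk1 is above the wt mean on the leukemia arrays and below it on the dHet arrays.

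The hexokinase and glucose transporter pairs separated leukemias from both pro-B groups. Hk2/Hk1 was -3.08 to -1.42 in leukemias, against -5.70 and -5.48 in dHet and -4.38 and -4.14 in wt. It was higher by 1.90 ± 0.35 against wt (adjusted p = 0.00579) and 3.22 ± 0.35 against dHet (9.35-fold, adjusted p = 0.00171), and dHet cells were lower than wt (-1.33 ± 0.27, adjusted p = 0.00974). Slc2a3/Slc2a1 was higher by 1.6 ± 0.35 (adjusted p = 0.00997) and 1.58 (adjusted p = 0.0141). The phosphofructokinase pairs split the 2 comparisons. Pfkm/Pfkp was higher than wt in leukemias (1.79 ± 0.25, adjusted p = 0.00211) and in dHet cells (3.06 ± 0.38, adjusted p = 0.00121), and lower in leukemias than in dHet (-1.28 ± 0.25, adjusted p = 0.00984). Idh2/Idh1 was higher in leukemias than in either pro-B group (1.78 ± 0.39, adjusted p = 0.0109, and 1.56, adjusted p = 0.0227), or by 1.48 and 1.25 with undetected arrays at the dimmest level. Against dHet it did not pass with normexp and quantile normalization (0.48) or the deposited values (0.42). Aldoc/Aldoa (0.43, adjusted p = 0.575) and Mdh2/Mdh1 (-0.07, adjusted p = 0.813) did not pass against wt. Where the isozyme of a pair was read as the mean of all its kept probes, 1 ratio was lower than wt in place of 3.

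The remaining genes of the same pathways were counted from lists. Against wt, 8 of 14 other glycolysis genes (57.1%) were higher and 1 (7.14%) lower, where 31.3% and 27.5% of all genes were. Gapdh, which oxidises glyceraldehyde 3-phosphate, rose by 2.48 ± 0.15 (adjusted p = 0.000277) and Pkm, the pyruvate kinase, by 1.99 ± 0.15 (adjusted p = 0.000366). Pfkfb2, whose product sets the level of an activator of phosphofructokinase, fell by 0.82 ± 0.27 (adjusted p = 0.0429), detected on 3 of 6 leukemia arrays and at -0.23 with the others at the dimmest level well above background, and the smallest rise among those that passed was that of its relative Pfkfb4 (0.53 ± 0.15, adjusted p = 0.0236). Of 18 other TCA and citrate genes 16 were higher, led by the mitochondrial citrate exporter Slc25a1 (3.25 ± 0.36, adjusted p = 0.00103) and the succinyl-CoA synthetase subunit Suclg2 (2.64 ± 0.28, adjusted p = 0.000921), with Sucla2 (0.39 ± 0.13) and Dlst (0.64 ± 0.13) lowest. Of 10 other genes around pyruvate 5 were higher, led by Pck2, the mitochondrial phosphoenolpyruvate carboxykinase (2.89 ± 0.20), and Dlat, a pyruvate dehydrogenase subunit (1.36 ± 0.19), with Pdhx (0.46 ± 0.13) and Dld (0.95 ± 0.12) lowest. Of 6 other pentose and ribose phosphate genes 5 were higher, led by the phosphoribosyl pyrophosphate synthetases Prps2 (1.39 ± 0.22) and Prps1 (1.22 ± 0.19), with Rpe (0.37 ± 0.12) and Rbks (0.69 ± 0.24) lowest. The medians of these lists were 0.81, 0.87, 0.41 and 0.81, against 0.06 over all genes. In the same order the shares higher were 57.1%, 88.9%, 50% and 83.3%, against 31.3% of all genes.

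Against dHet pro-B cells 5 of the other glycolysis genes (35.7%) were higher and 4 (28.6%) lower, where 21.7% and 24.4% of all genes were. Slc2a6 (1.23 ± 0.19) and Gapdh (1.15 ± 0.15) had the highest changes, and Pfkfb4 (-1.18 ± 0.15, adjusted p = 0.00251) and Pfkfb2 (-0.99 ± 0.27, adjusted p = 0.0302) the lowest. Of the 18 other TCA genes 9 were higher, among them Suclg2 (2.20 ± 0.28), with Sdha (0.59 ± 0.14) and Dlst (0.61 ± 0.13) lowest. Around pyruvate 4 of 10 were higher, Mpc1 (1.01 ± 0.19), Pdp1 (0.89 ± 0.22), Dlat (0.76 ± 0.19) and Dld (0.39 ± 0.12), of which Mpc1 is a subunit of the mitochondrial pyruvate carrier. Of the 6 pentose and ribose phosphate genes, Prps1 (1.74 ± 0.19), Rpe (0.87 ± 0.12) and Prps2 (0.78 ± 0.22) were higher.

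Of 11 regulators of these pathways 5 (45.5%) were higher and 3 (27.3%) lower against wt, where 31.3% and 27.5% of all genes were. Epas1, which encodes HIF-2 alpha, had the highest change (3.88 ± 0.28, adjusted p = 0.000358), and Myc the next (3.40 ± 0.34, adjusted p = 0.000777), while Hif1a moved by 0.57 ± 0.15 (adjusted p = 0.0223). The coactivator gene Ppargc1a was at least 8.53-fold lower, being well above background on wt arrays only, and Foxo1 fell by 1.38 ± 0.34 (adjusted p = 0.0158). Txnip, an inhibitor of glucose uptake, was lower than wt in leukemias (-0.62 ± 0.21, adjusted p = 0.0423) and in dHet cells (-0.86 ± 0.18, adjusted p = 0.0115). Against dHet, 4 (36.4%) were higher and 3 (27.3%) lower, where 21.7% and 24.4% of all genes were, with Myc (4.67 ± 0.34, adjusted p = 0.000742) and Epas1 (1.92 ± 0.28, adjusted p = 0.00397) highest and Foxo1 (-1.45 ± 0.34) and Arnt (-0.66 ± 0.18) lowest. Hif1a was 0.64 ± 0.15 higher (adjusted p = 0.0195), and Txnip did not pass (0.24, adjusted p = 0.376). Between the pro-B groups Myc was lower in dHet cells (-1.26 ± 0.32, adjusted p = 0.0223).

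Genes known to respond to hypoxia outside these pathways did not share a direction. Of 14 tested, 6 (42.9%) were higher and 3 (21.4%) lower against wt, where 31.3% and 27.5% of all genes were, with Vegfa (2.46 ± 0.20, adjusted p = 0.000467) highest and Car9 at least 2.62-fold higher, and with Adm at least 19.1-fold lower and Bhlhe40 lower (-4.31 ± 0.49, detected on 1 of 6 leukemia arrays, or -3.59 with the others at the dimmest level well above background). Against dHet 3 (21.4%) were higher and 4 (28.6%) lower, near the 21.7% and 24.4% of all genes, with Ankrd37 (2.16 ± 0.18) and Ndrg1 (1.98 ± 0.57) highest, and Bhlhe40 (-3.97 ± 0.49) and Bnip3 (-1.67 ± 0.34) lowest.

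Few of these genes passed between the 3 leukemias, and p-values between them rest on how far replicate arrays lay apart. With 2 arrays for each leukemia, a gene that did not pass is not thereby shown to be alike. Against the other 2 leukemias, 1 gene was higher and 1 lower in 686 (1.74% and 2.53% of all genes), 1 higher and 2 lower in 713 (8.88% and 6.48%), and 4 higher and 0 lower in 760 (5.34% and 6.63%). The 0 came from limma, and 2 genes were lower there at an unadjusted p under 0.05. Slc16a1 separated all 3, at 4.84 and 5.29 in 760, 4.62 and 4.65 in 686 and 3.67 and 3.74 in 713. It was 0.89 ± 0.17 higher in 760 (adjusted p = 0.0145) and 1.14 ± 0.17 lower in 713 on the log2 scale (change -1.14, adjusted p = 0.0045), each against the other 2. Aldoc was highest in 760, at 0.35 and -0.19, against -1.51 and -2.12 in 686 and -1.15 and -1.44 in 713 (1.64 ± 0.27, adjusted p = 0.00915). Leukemia 760 also had higher Pdk2 (1.56 ± 0.30, adjusted p = 0.0164) and Rpia (0.66 ± 0.16, adjusted p = 0.0423). With undetected arrays of the other 2 leukemias at the dimmest level well above background, the Pdk2 change was 0.60. Leukemia 713 had lower Idh2 (-0.68 ± 0.15, adjusted p = 0.0219) and higher Pfkp (0.59 ± 0.15, adjusted p = 0.0407), and leukemia 686 had higher Slc16a3 (1.33 ± 0.26, adjusted p = 0.0367) and lower Idh1 (-0.88 ± 0.19, adjusted p = 0.0473), which came to 0.03 with its undetected array at that dimmest level. The rises of Aldoc and Pdk2 in 760 did not pass without its replicate 1, nor that of Slc16a1 without its replicate 2, and the calls of Rpia, Idh1, Idh2, Pfkp and Slc16a3 were each lost without several of the arrays. Of 9 myeloid markers tested, 6 were higher in 686 (median 2.15) and 6 lower in 760 (median -2.37), and of 4 red cell markers 2 were higher in 713 (median 2.54) and 2 lower in 686 (median -2.89), and their part in these results was not tested.

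Numbers of calls between leukemias depended on how the shared slides were treated. With the replicate number as a block, which stands for the slide, the 9 calls above were kept. It added lower Aldoc in 686 (-1.20, adjusted p = 0.0408), lower Slc16a3 (-0.81, adjusted p = 0.0228) and higher Slc2a1 (0.61, adjusted p = 0.0229) in 713, and lower Slc2a1 (-0.57, adjusted p = 0.0347) and higher Idh1 (0.67, adjusted p = 0.0488) in 760. The Idh1 change came to 0.21 with undetected arrays at the dimmest level. Hk3 was also called lower in 760 (adjusted p = 0.0329), where no array measured it, so it has no fold.

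Set against the pro-B arrays, the leukemia arrays of slides 1 and 2 gave changes of similar size for most genes. In 11 of the 38 genes the mean over the 3 leukemias differed by more than 0.5 between the slides, where 40% of all genes did. Among the genes called against wt, Hk1 did not pass on slide 2 (0.65, adjusted p = 0.0873) and Pgls not on slide 1. Over 27 alternative treatments of the data, 20 of the 25 higher and 2 of the 5 lower calls against wt were kept in every one, the 2 being Ldhb and Pdk2, in the 26 that gave them a value. With single arrays left out, the calls of Aldoa and Rpia against wt were lost without either wt array, that of Mdh2 without wt replicate 1 and that of Hk3 without wt replicate 2, while those of Hk1 and Pgls were lost without several arrays. The calls of Aldoa, Cs and Mdh2 against wt were also lost with quantile normalization and with the deposited values. Against dHet, 9 of 22 higher calls were kept in every alternative, those of Slc2a3, Hk2, Pfkl, Tpi1, Pgam1, Eno1, Ldha, Pdk1 and Idh3a. Among the others, Pfkp did not pass without dHet replicate 1 and Pgd not without dHet replicate 2, and the remaining calls were lost without either dHet array. The second probes of Pdk1 and Tpi1, which no alternative took alone, did not pass against dHet (-0.01 and -0.41). For dHet against wt, 6 of 12 higher calls and 1 of 5 lower calls (Rpia) were kept in all of 21 alternatives, the 6 being Gpi1, Pgk1, Slc16a1, Pdk1, Tkt and Idh2.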

How the data were processed

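Total RNA, extracted with the RNeasy Mini Kit and labelled with Cy3 by the Quick Amp method per the labels' protocols, was measured on 10 arrays in 5 groups of 2. Each deposited scanner file holds intensity values of 45018 spots (43379 non-control, 41174 probes). Per the file headers, Feature Extraction 10.5.1.1 made them by background subtraction within each array and not between arrays, and positions are on mm9, although version 9.1 stands in the submitters' processing notes. The authors' deposited value table holds log2 values of 41267 probes (41174 matched), with medians between 6.83 and 6.85. How its background and centring were set is unknown, and it served as an alternative.

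Control spots and outlier spots were left out, spots of a probe were averaged, and log2 processed signal was scaled to each array's 75th percentile. No spot was saturated, and 211 probes had only outlier spots on some array. Of 27218 genes by the files' name, each read from its brightest probe, 14438 had signal well above background on every array of 1 or more groups and entered the tests. The number of arrays limits the precision. A gene not well above background in a whole group has a bound only, the other group's mean against the dimmest level well above background.

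The package limma 3.58.1 gave all tests, run in R 4.3.3 (the package data.table at version 1.17.8; plots by matplotlib 3.10.9), with Benjamini-Hochberg adjustment over all genes at 0.05. Leukemias against pro-B cells used 7 samples (the means of 3 mice with 2 arrays each of dHet and wt, leaving 4 residual degrees of freedom), which pools the spread of mice and of single arrays. Pro-B groups, and each leukemia against the other 2, used 10 arrays (5 residual degrees of freedom), so these p-values measure the spread between arrays of a group, which may be technical. Leukemia against wt and dHet against wt share the wt arrays. The code was tested on simulated data, which held no slide effect and so cannot speak to the part of the slides. Alternatives were other scaling, normexp background correction, quantile normalization, the deposited values, other filters on dim probes, the mean of all kept probes of a gene, leaving out each array, slide and scan day as blocks, the replicate number as a block, and the slides taken singly, the last of these added after seeing the data for slide 1.

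Deviations of same-numbered arrays correlated at 0.44 to 0.63 among the 3 leukemias, whose replicate 1 arrays share slide 1 and whose replicate 2 arrays share slide 2. For pairs with a pro-B group the correlation was -0.03 to 0.08, so the numbers pair the leukemias only.

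The 40 genes, the other lists and the tests were chosen with earlier results of these data known. All 40 genes are named, and of each other list the 2 highest and 2 lowest changes past the threshold, with Myc, Hif1a and Txnip, except that some results are not reported here. Promoters are those of RefSeq on GRCm38.p6 (32851 promoters of 27025 symbols), first-listed start, and are on another build than the probes.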

Additional observations from a re-analysis of the deposited data

Results flagged for a closer look

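Each value here is a leukemia whose difference from the other 2 leukemias passed the test of that difference, 9 for single genes and 8 for isozyme ratios, and no explanation was tested. In leukemia 686, Slc16a3 differed by 1.33 ± 0.26 (adjusted p = 0.0367, limma) and Idh1 by -0.88 ± 0.19 (0.0473), which came to 0.03 with the undetected array at the dimmest level well above background. The ratio Aldoc/Aldoa was lower there (-1.61, adjusted p = 0.00706) and Idh2/Idh1 higher (1.15, adjusted p = 0.0211), the second coming to 0.24 with undetected arrays at that level.

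In leukemia 713, Slc16a1 differed by -1.14 ± 0.17 (adjusted p = 0.0045), Idh2 by -0.68 ± 0.15 (0.0219) and Pfkp by 0.59 ± 0.15 (0.0407). Its ratios Pfkl/Pfkp (-1.50, adjusted p = 0.0475) and Idh2/Idh1 (-0.89, adjusted p = 0.0194) were lower, the second coming to -0.44 with undetected arrays at the dimmest level. The Slc16a1 and Pfkp calls were lost with the mean of all kept probes.

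In leukemia 760, Slc16a1 differed by 0.89 ± 0.17 (adjusted p = 0.0145), Aldoc by 1.64 ± 0.27 (0.00915), Pdk2 by 1.56 ± 0.30 (0.0164) and Rpia by 0.66 ± 0.16 (0.0423). The Slc16a1 call was lost with the mean of all kept probes. Aldoc/Aldoa was higher (1.70, adjusted p = 0.00174), and Slc16a3/Slc16a1 (-1.41, adjusted p = 0.0313), Pdk1/Pdk2 (-1.74, adjusted p = 0.0145) and Pdk3/Pdk2 (-1.48, adjusted p = 0.035) were lower. With undetected arrays of Pdk2 at the dimmest level, its own change was 0.60 and the 2 ratios changed by -0.78 and -0.51. Pdk1/Pdk2 was -0.71 with normexp and quantile normalization and -0.60 with the deposited values, where it did not pass (adjusted p = 0.0547), and Pdk3/Pdk2 was -0.41 and -0.30 and passed in neither. On both arrays of 760 the log2 ratio Pdk1/Pdk2, at 5.14 and 5.45, was still above that of dHet (2.82 and 2.94) and wt pro-B cells (-0.56 and -0.32).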

How the results depend on the processing

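The direction of 5 genes against wt turned under an alternative. Ogdh went to 0.31 with scaling by the array median, and Idh1 to 0.10 there, 0.06 with normexp and quantile normalization and 0.06 with the deposited values, and neither passed. Taldo1, which did not pass in the main fit, passed as lower in limma under other processing. It went to -0.43 with quantile normalization (adjusted p = 0.0262) and -0.43 with normexp and quantile normalization (adjusted p = 0.0169). With the deposited values it went to -0.47 (adjusted p = 0.00768). With the mean of all kept probes Hk1 went to -0.03 and Pfkp to -0.66, where Pfkp passed as lower in limma (adjusted p = 0.034). Pfkp was -0.27 when scaled on the probes detected everywhere and -0.11 without leukemia 713. With the mean of all kept probes the ratios lower than wt dropped to 1. Scaling by the array median moved the median change of all genes to 0.63, 0.15 and 0.48 for leukemias against wt, against dHet and dHet against wt, and scaling on probes detected on all arrays moved it to -0.30, -0.20 and -0.10.

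Counts of these genes that moved by more than 1.5 times, where the cause was not tested, were as follows. Lower genes against wt numbered 3 with scaling by the array median and 2 with a filter for detection on all 10 arrays, and between dHet and wt also 3 and 2. Against dHet, 13 were higher with slide as a random block, and 1 was lower with array median scaling, 1 with the filter on all 10 arrays and 4 with scan day as a block. In leukemia 686, 0 were higher with array median scaling, quantile normalization, no filter or the filter on all 10 arrays, 2 with the deposited values, 4 with slide as a random block and 6 with scan day. Its lower genes numbered 0 without a filter, 4 with slide or scan day, and 2 with array median scaling, normexp, the deposited values, the mean of probes or the replicate block. In leukemia 713, 0 were higher with array median scaling, scaling on probes detected on all arrays, no filter or the mean of probes, and 2 with the filter on all 10 arrays, the replicate block, slide or scan day. Its lower genes numbered 1 with array median scaling, no filter or the mean of probes, 5 with scaling on detected probes, 4 with quantile normalization or the deposited values, 6 with normexp, 9 with slide and 13 with scan day. In leukemia 760, 1 was higher without a filter, 7 with slide and 9 with scan day, and 2 were lower with the replicate block or slide and 3 with scan day, where limma without them called 0 (2 at an unadjusted p under 0.05).

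In the other comparisons with pro-B cells, 7 genes for leukemias against dHet and 10 for dHet against wt took the other sign under an alternative, and none of these passed.

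Leaving out single arrays or whole leukemias gave 22 to 26 higher and 2 to 5 lower genes against wt (3 lower without wt replicate 1 and 2 without wt replicate 2), 10 to 22 higher and 0 to 3 lower against dHet, and 7 to 13 higher and 3 to 6 lower for dHet against wt. Against dHet, 10 were higher without either dHet array and 16 without replicate 1 of leukemia 713. In leukemias 686, 713 and 760 the ranges were 0 to 1, 0 to 2 and 2 to 4 higher and 0 to 1, 1 to 2 and 0 to 0 lower. Ratios higher numbered 4 to 7, 3 to 7 and 2 to 4, and lower 1 to 3, 1 to 2 and 3 to 4, in the comparisons with wt, with dHet and of dHet with wt. With the replicate block, 28 genes were higher and 7 lower against wt, 21 and 3 against dHet, and 12 and 5 for dHet against wt. Levels near background limit Hk3, Slc16a3, Ldhb, Pdk2 and Idh1, which had leukemia arrays not well above background.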
